A study of Mus musculus with 8 samples.

Results

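Iron uptake, storage and export genes were examined in sorted Paneth cells (PCs) of the mouse small intestine, in mice with and without zinc in the drinking water. The 8 genes were chosen by symbol: Tfrc and Slc11a2 for uptake, Slc40a1 and Hamp for export, Fth1 and Ftl1 for storage, and Ireb2 and Aco1 for regulation. Each was found once by its Ensembl gene ID among the 55414 gene IDs of the count table. Of the 8, 7 passed the filter on low counts and were among the 11988 genes tested, and Hamp did not pass.

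PCs are secretory cells at the crypt base that store antimicrobial proteins in granules. All mice were C57BL/6J, with no transgene or deletion named in the labels. The water group of 4 mice received Milli-Q (ultrapure) water for 7 days, and the zinc group of 4 mice received water with 25 mM ZnSO4 for the same 7 days. Their age was not given in the sources used here. PCs were collected by fluorescence-activated sorting from a single cell suspension, and poly(A) RNA was sequenced, with 1 library per mouse. Because the RNA is from a pool of sorted cells, fewer cells expressing a gene and less RNA of it per cell cannot be told apart.

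A cell takes up iron either as transferrin bound to the transferrin receptor, encoded by Tfrc, or as ferrous ions through the divalent metal transporter DMT1, encoded by Slc11a2. Iron that is not used is stored inside a shell of ferritin heavy and light chains, encoded by Fth1 and Ftl1, or leaves through ferroportin, encoded by Slc40a1, the only known iron exporter of animal cells. Hepcidin, the peptide hormone encoded by Hamp and made mainly in the liver, removes ferroportin from the cell surface. In cells short of iron, the iron regulatory proteins IRP1 (encoded by Aco1, and an aconitase when it carries an iron-sulphur cluster) and IRP2 (encoded by Ireb2) bind short RNA hairpins called iron-responsive elements (IREs). Bound in a 5′ untranslated region (UTR), an IRP blocks translation, and bound in the 3′ UTR of Tfrc mRNA it protects the mRNA from decay. In the intestine, Slc11a2 and Slc40a1 are best known from the villus enterocytes that absorb dietary iron.

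The hairpin sequences are shown because letters of this kind were found in 4 of the 8 genes. The transcripts of GENCODE M39 on GRCm39 were searched for a C, any 5 bases, the loop CAGTGN, and 5 bases that pair with the 5 before the loop, allowing G-T pairs. In the lines that follow, written 5′ to 3′ along the transcript as DNA letters, capitals mark the bulged C and the loop.
Fth1 5′ UTR, chr19:9960096-9960124, plus strand: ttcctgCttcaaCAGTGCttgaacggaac
Ftl1 5′ UTR, chr7:45109203-45109231, minus strand: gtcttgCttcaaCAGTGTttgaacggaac
Slc40a1 5′ UTR, chr1:45964625-45964653, minus strand: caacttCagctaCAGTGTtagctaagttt
Tfrc 3′ UTR, chr16:32450037-32450065, plus strand: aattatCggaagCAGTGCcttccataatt
Tfrc 3′ UTR, chr16:32450416-32450444, plus strand: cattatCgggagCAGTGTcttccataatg
Tfrc 3′ UTR, chr16:32450481-32450509, plus strand: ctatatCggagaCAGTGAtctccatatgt
Tfrc 3′ UTR, chr16:32450528-32450556, plus strand: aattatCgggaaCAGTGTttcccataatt

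The Fth1 match was present in 24 of 25 coding transcripts, the Ftl1 match in 7 of 8 and the Slc40a1 match in 7 of 11. Each of the 4 Tfrc matches was present in 16 of 18 coding transcripts. From the bulged C to the end of the lines shown, both ferritin hairpins share every letter except the last of the loop. Slc11a2, Hamp, Ireb2 and Aco1 held no match in a UTR, which says only that these letters are not there, since some transcripts of Slc11a2 are known to carry an IRE. Over 21770 coding genes, 48 (0.22%) held a match in a 5′ UTR and 243 (1.12%) in a 3′ UTR. A match is a run of letters and was not tested as a binding site.

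The 8 libraries held 20760764 to 24117111 counts. Levels are given as CPM, counts scaled to a common library size with TMM factors of 0.764 to 1.23. A gene without a read could be as high as 0.115 to 0.188 CPM in a library (a limit of 3 counts, for counting error only). The factors were lowest in water replicate 1 and zinc replicate 1. Both of these libraries had the highest summed CPM of 7 PC markers, which ran from 361300 to 708400 CPM in water mice and from 341700 to 703500 CPM in zinc mice. As a check of the treatment, the metallothionein genes Mt2 and Mt1 rose with log2 fold changes of 6.15 (SE 0.51, edgeR adjusted p = 0.0198) and 3.65 (SE 0.38, edgeR adjusted p = 0.0259), and the zinc exporter gene Slc30a1 rose by 2.01 on the log2 scale (SE 0.29, edgeR adjusted p = 0.0198).

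Per length of merged exons, the ferritin genes ranked among the highest of the genes tested and the ferroportin gene among the lowest. Levels between genes were compared as CPM per kb of merged exons, which counts every annotated exon of a gene once. Fth1 was the highest at 237 ± 29.0 CPM per kb in water mice (SD, n = 4) and ranked 58th of the 11988 genes tested over all 8 libraries. Ftl1 followed at 45.2 ± 6.06 CPM per kb and rank 266, and Tfrc at 11.3 ± 1.26 CPM per kb and rank 1501. Aco1 stood at 8.59 ± 0.691, Ireb2 at 3.63 ± 0.360 and Slc11a2 at 2.04 ± 0.452 CPM per kb in water mice (SD, n = 4 each). Slc40a1 was the lowest of the tested members at 0.168 ± 0.0596 CPM per kb in water mice and rank 11432. With zinc the order was the same except for 1 pair of neighbours: Tfrc, at 8.57 ± 1.58 CPM per kb, stood below Aco1, at 9.18 ± 0.631 (SD, n = 4 each), and those 2 did not differ beyond their spread. In every other pair of neighbours in the order of a group, Tfrc and Aco1 in water mice included, the means lay further apart than the sum of their SDs. The merged exons were longer than the Ensembl canonical transcript, at 3520 against 929 bases for Fth1 and 11071 against 3025 bases for Slc11a2. Divided by the canonical length, a choice made after seeing the data, Slc11a2 stood at 7.47 ± 1.66 CPM per kb in water mice and above Ireb2 at 6.96 ± 0.691, and those 2 did not differ beyond their spread, nor did Tfrc at 16.3 ± 1.81 and Aco1 at 14.8 ± 1.19 (SD, n = 4 each). In zinc mice, by the same length, Ireb2 at 6.70 ± 0.292 was above Slc11a2 at 5.55 ± 0.546, and Aco1 at 15.8 ± 1.08 above Tfrc at 12.4 ± 2.28 (SD, n = 4 each), both further apart than the sum of their SDs. Fth1, then Ftl1, stayed the highest and Slc40a1 the lowest.

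None of the 7 tested members passed the adjusted threshold of 0.05 in the comparison of zinc with water, which 0.0834% of all genes tested passed (10 genes by edgeR, with 3 or 0.025% higher and 7 or 0.0584% lower). DESeq2 and limma-voom also called 0 members, and called 0.225% and 0.1% of all genes to which they gave an adjusted p. At an unadjusted edgeR p under 0.05 there were 2 members, Tfrc and Slc11a2, both lower. Of all genes tested, 4.65% were under this level in either direction and 2.81% were under it and lower. The groups overlapped in each of the 7 members, while they did not overlap in 2.84% of all genes tested. The log2 fold change was below 0 in 6 members and above 0 in 1, with a median of -0.05 against 0.01 over all genes tested. Of all 11988 genes tested, 5761 were below 0 and 6227 above.

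**Figure D1:**
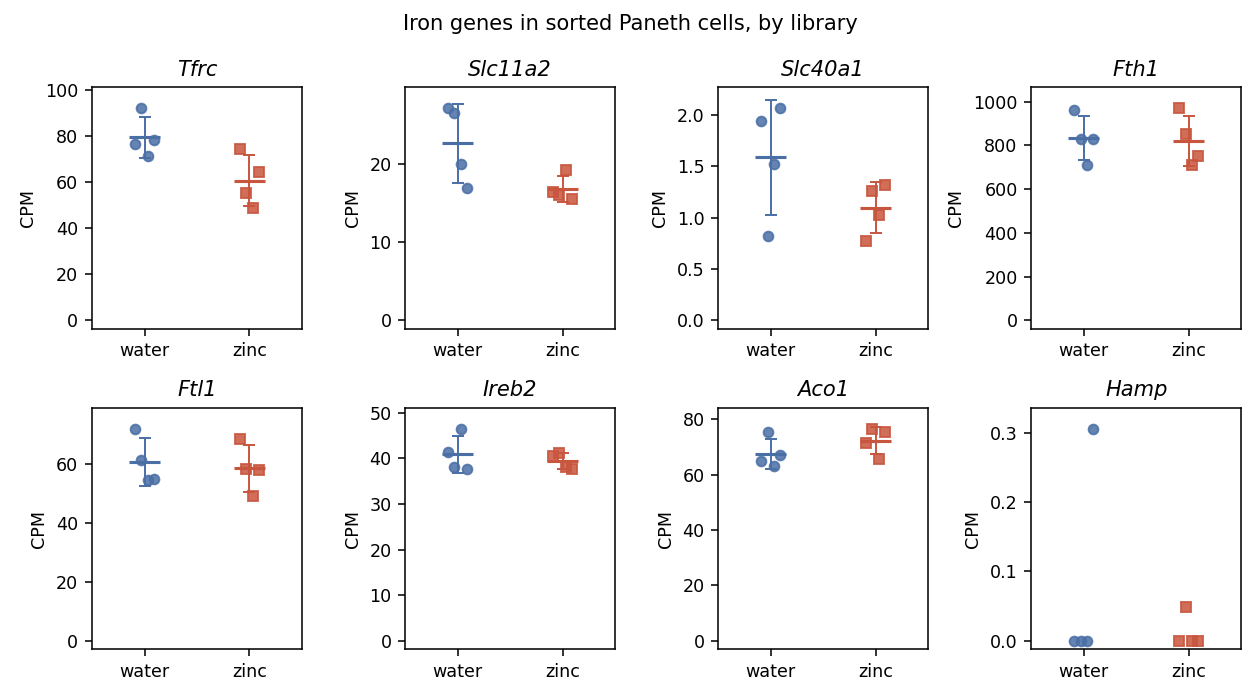
Level of each of the 8 iron genes in CPM (linear axes that include 0, a separate scale per gene) in the 4 water libraries (blue circles) and the 4 zinc libraries (red squares), with bars for the mean ± SD of each group except for Hamp, for which only the points are drawn. The zinc points of Tfrc and Slc11a2 sit mostly below the water points, with 1 zinc library of each gene inside its water range. The groups lie over each other for Fth1, Ftl1, Ireb2 and Aco1.

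Both uptake genes were lower in the zinc libraries on average, without passing the adjusted threshold. Tfrc (ENSMUSG00000022797, GRCm39 chromosome 16, 32427556 to 32451612, plus strand, 20 merged exons) was at 76.7, 92.1, 71.2 and 78.3 CPM in water replicates 1 to 4 and at 74.3, 55.2, 48.6 and 64.2 CPM in zinc replicates 1 to 4. Zinc replicates 2, 3 and 4 lay below all water libraries, and zinc replicate 1 lay inside the water range. The mean was 79.6 ± 8.87 CPM in water mice and 60.6 ± 11.1 CPM in zinc mice (SD, n = 4 each). This is a log2 fold change of -0.39 (SE 0.13), or 0.761 times the water level with an interval of 0.627 to 0.924 (95%, not adjusted). The edgeR p was 0.0086, the 119th smallest of the 11988 genes, and the adjusted p was 0.866. With library totals as the only scaling the log2 fold change was -0.41 and the unadjusted edgeR p was 0.07.

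Slc11a2 (ENSMUSG00000023030, chromosome 15, 100285776 to 100322953, minus strand, 22 merged exons) was at 27.1, 26.5, 19.9 and 16.9 CPM in water replicates 1 to 4 and at 16.4, 16.0, 19.2 and 15.5 CPM in zinc replicates 1 to 4. Water replicates 1, 2 and 3 lay above all zinc libraries, and water replicate 4 lay inside the zinc range. The spread was wider with water, at 22.6 ± 5.01 CPM, than with zinc, at 16.8 ± 1.65 CPM (SD, n = 4 each), and this difference in spread was not tested. In zinc mice Slc11a2 was thus at 0.745 times the water level, with an interval of 0.593 to 0.936 (log2 fold change -0.43, SE 0.16). The edgeR p was 0.0144 and the adjusted p 0.998. The unadjusted p was 0.051 without water replicate 1, 0.0566 without water replicate 2 and 0.0954 with library totals as the only scaling. Slc11a2 encodes several DMT1 isoforms, and the table gives 1 count per gene, so the isoforms were not separated.

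Both genes of the export side had few counts. Slc40a1 (ENSMUSG00000025993, chromosome 1, 45947211 to 45965683, minus strand, 8 merged exons) had 31, 19, 36 and 54 counts in water replicates 1 to 4 and 13, 26, 26 and 34 counts in zinc replicates 1 to 4. These are 1.94, 0.816, 1.52 and 2.06 CPM in water mice and 0.772, 1.26, 1.03 and 1.32 CPM in zinc mice. The lowest value of each group was alike, and 3 of the water libraries lay above all zinc libraries. The exact 95% Poisson interval of the 13 counts in zinc replicate 1 ran from 6.92 to 22.2 and that of the 54 counts in water replicate 4 from 40.6 to 70.5. The mean was 1.59 ± 0.562 CPM in water mice and 1.09 ± 0.248 CPM in zinc mice (SD, n = 4 each). The log2 fold change of -0.52 (SE 0.40) had an interval of 0.390 to 1.25 as a ratio, and the edgeR p was 0.207 (adjusted p = 0.998). The interval thus holds ratios from 0.390 to 1.25 times the water level, no difference included.

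Hamp (ENSMUSG00000050440, chromosome 7, 30641766 to 30643990, minus strand, 4 merged exons) had 9 counts in all. Of these, 8 were in water replicate 4 (0.306 CPM, exact 95% Poisson interval 3.45 to 15.8 counts) and 1 was in zinc replicate 2 (0.0483 CPM), and the other 6 libraries had 0. Hamp was therefore above the limit that a count of 0 allows in 1 library, and no fold change is given.

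The storage genes were level between the groups. Fth1 (ENSMUSG00000024661, chromosome 19, 9957911 to 9962462, plus strand, 2 merged exons) was at 962, 830, 711 and 831 CPM in water replicates 1 to 4 and at 969, 852, 713 and 751 CPM in zinc replicates 1 to 4. Replicate 1 was the highest library and replicate 3 the lowest in both groups. The means of 833 ± 102 CPM in water mice and 821 ± 115 CPM in zinc mice (SD, n = 4 each) differed by less than the spread between mice. The ratio of zinc to water had an interval of 0.795 to 1.22 (log2 fold change -0.02, SE 0.15), with an edgeR p of 0.887 and an adjusted p of 0.998.

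Ftl1 (ENSMUSG00000050708, chromosome 7, 45107367 to 45109308, minus strand, 4 merged exons) was at 71.8, 61.4, 54.4 and 54.8 CPM in water replicates 1 to 4 and at 68.5, 58.4, 49.0 and 58.1 CPM in zinc replicates 1 to 4. As for Fth1, replicate 1 was the highest and replicate 3 the lowest in each group, and the groups overlapped. The means were 60.6 ± 8.13 and 58.5 ± 7.98 CPM (SD, n = 4 each). For the ratio of zinc to water the interval was 0.803 to 1.16 (log2 fold change -0.05, SE 0.13), with an edgeR p of 0.690 and an adjusted p of 0.998.

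The level of Ftl1 is uncertain because the gene has near-identical copies. Of the 895 windows of 75 bases along its Ensembl canonical transcript, 603 (67.4%) also occurred elsewhere in GRCm39, at 8 other places, while for Fth1 the share was 3.86% and for Tfrc, Slc11a2, Slc40a1, Ireb2 and Aco1 it was 0%. How reads with several places were counted was not given in the sources used here. The other 15 gene IDs whose symbols start with Ftl or Fth held 161 of the 155196 counts of all 17, or 0.104%, and 10 of them were at 0 in all 8 libraries. Of the 161 counts, 147 were in Fth1-ps. Within a library there were 13.8 Fth1 counts per Ftl1 count with water and 14.0 with zinc.

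Together, Fth1 and Ftl1 took 0.0789%, 0.0906%, 0.0816% and 0.107% of all counts in the water libraries (replicates 1 to 4) and 0.0804%, 0.0908%, 0.0799% and 0.0991% in the zinc libraries. The mean share was 0.0896% ± 0.0129 in water mice and 0.0875% ± 0.00918 in zinc mice (SD, n = 4 each), a difference of -0.00207 percentage points (exact two-sided permutation p = 0.857). The order of the libraries depended on the scaling. By share of all counts replicate 4 was the highest in each group, whereas in TMM-scaled CPM replicate 1 was the highest in each group, at 1033 and 1038 CPM.

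The regulators were level between the groups. Ireb2 (ENSMUSG00000032293, chromosome 9, 54770970 to 54820011, plus strand, 21 merged exons) was at 41.3, 38.2, 46.4 and 37.5 CPM in water replicates 1 to 4 and at 40.6, 41.1, 38.1 and 37.7 CPM in zinc replicates 1 to 4. Water replicate 3 was the highest library, and the zinc libraries fell inside the water range. Between the groups the ratio had an interval of 0.821 to 1.13 (log2 fold change -0.05, SE 0.11), and the edgeR p was 0.626 (adjusted 0.998).

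Aco1 (ENSMUSG00000028405, chromosome 4, 40142998 to 40199010, plus strand, 29 merged exons) was at 65.0, 75.4, 63.1 and 67.0 CPM in water replicates 1 to 4 and at 71.6, 76.5, 65.6 and 75.6 CPM in zinc replicates 1 to 4. It was the only tested member with a mean that was higher with zinc, at 72.3 ± 4.97 against 67.6 ± 5.44 CPM (SD, n = 4 each), and the groups overlapped. The interval of its ratio was 0.915 to 1.25 (log2 fold change 0.10, SE 0.11), and the edgeR p was 0.378 (adjusted 0.998). The intervals of Fth1, Ftl1, Ireb2 and Aco1 thus all lay within 0.795 to 1.25, whereas those of Tfrc, Slc11a2 and Slc40a1 reached lower.

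**Figure D2:**
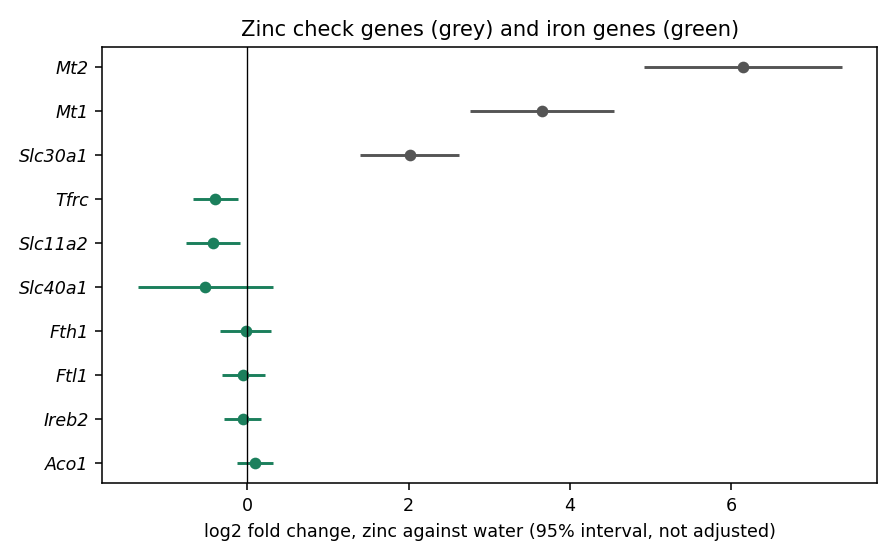
Log2 fold change of zinc against water with its 95% interval (horizontal lines, not adjusted for the number of genes) for the 3 zinc check genes (grey) and the 7 tested iron genes (green), with 0 as a vertical line. The check genes lie between 2.01 and 6.15, while the iron genes lie between -0.52 and 0.10, and only the intervals of Tfrc and Slc11a2 end below 0.

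Ratios of counts within a library need no scaling between libraries, and 4 were compared. The log2 ratio of Tfrc to Fth1, receptor against storage, was -3.65, -3.17, -3.32 and -3.41 in the water libraries (replicates 1 to 4) and -3.71, -3.95, -3.87 and -3.55 in the zinc libraries. Water replicates 2, 3 and 4 lay above all zinc libraries, and water replicate 1 lay inside the zinc range. The mean was -3.39 ± 0.20 in water mice and -3.77 ± 0.18 in zinc mice (SD, n = 4 each), a difference of -0.38 on the log2 scale (exact two-sided permutation p = 0.0571, Benjamini-Hochberg adjusted over the 4 ratios 0.229). With 4 against 4 libraries the smallest p this test can give is 0.0286.

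The other 3 ratios differed by less than the spread between mice. For Fth1 to Ftl1, heavy against light chain, the log2 difference between zinc and water was 0.03 (exact permutation p = 0.6, adjusted 0.743). For Slc40a1 to Tfrc, export against uptake, it was -0.07 (exact permutation p = 0.743, adjusted 0.743), and water replicate 2 and zinc replicate 1 stood below the other libraries at -6.78 and -6.54. For Ireb2 to Aco1, the messages of the 2 IRPs, it was -0.15 (exact permutation p = 0.314, adjusted 0.629).

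**Figure D3:**
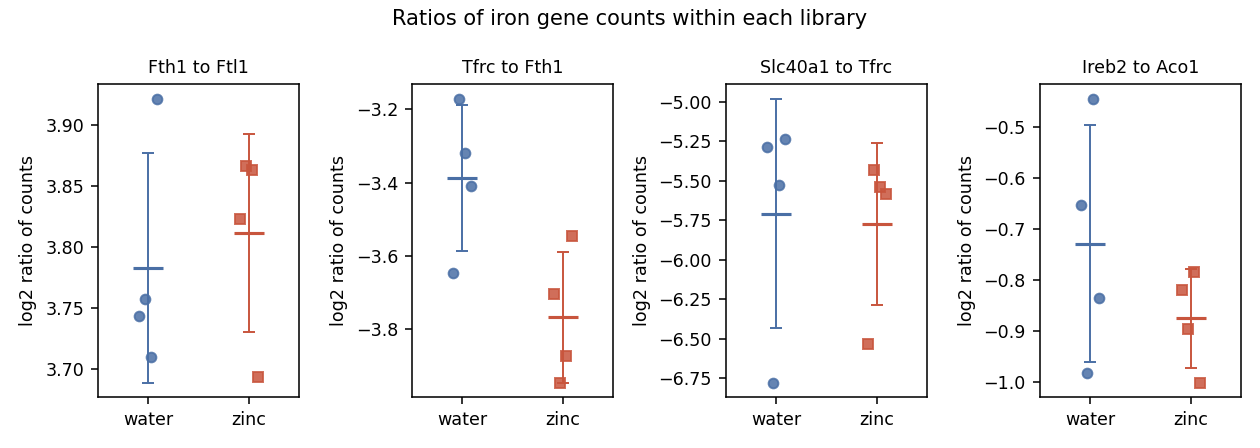
Log2 ratio of counts of a pair of iron genes within each of the 4 water libraries (blue circles) and the 4 zinc libraries (red squares), with bars for the mean ± SD and axes that do not start at 0. The ratio of Tfrc to Fth1 has a mean of -3.39 for water and -3.77 for zinc, with 1 water library among the zinc points, and the other ratios overlap more widely.

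Over the 8 libraries, 3 pairs of members were correlated on log2 CPM. Fth1 and Ftl1 varied together, with a Pearson r of 0.89 (exact permutation p = 0.00372, adjusted over 3 pairs 0.0112) and a Spearman rho of 0.83 (exact permutation p = 0.0154, adjusted 0.0461). Without water replicate 3 and zinc replicate 1, the libraries farthest from the median of Fth1, r was 0.87 over 6 libraries (exact permutation p = 0.0333, adjusted 0.1). With library totals as the only scaling r was 0.87 over 8 libraries (exact permutation p = 0.00486). Both ferritin genes were highest in CPM in the replicate 1 libraries, which also had the lowest TMM factors, and lowest in the replicate 3 libraries. The permutation takes the 8 libraries as independent. Its p would be too small if libraries of the same number share a source of variation.

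Tfrc and Fth1 had an r of 0.44 (exact permutation p = 0.275, adjusted 0.275) and a rho of 0.33 (exact permutation p = 0.428), and r was 0.33 without zinc replicates 2 and 3 (exact permutation p = 0.542). Tfrc and Slc11a2, the uptake genes, had an r of 0.50 (exact permutation p = 0.201, adjusted 0.275) and a rho of 0.50 (exact permutation p = 0.216), and r was 0.68 without the same libraries (exact permutation p = 0.142). With library totals as the only scaling, r was 0.69 for Tfrc and Fth1 (exact permutation p = 0.0616, adjusted 0.0924). By the same scaling it was 0.58 for Tfrc and Slc11a2 (exact permutation p = 0.126, adjusted 0.126). Neither relation passed the threshold in any of these settings. With 4 libraries a group, no value within a group is given.

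Of the 8665 tested genes with a mean of at least 5 CPM, the one whose log2 CPM had the highest Pearson r with Tfrc over the 8 libraries was Slc39a4 (r = 0.96), which encodes a zinc importer. Its level was 44.7 CPM in water mice and 26.1 CPM in zinc mice (edgeR adjusted p = 0.513). The next were Scn2b (r = 0.93) and the ribosomal protein gene Rpl37 (r = 0.90). For Fth1 the most alike were Fto, Tafazzin and Vkorc1, at r of 0.97, 0.97 and 0.96, and for Slc40a1 they were Nosip, Usp25 and Ldlrad3, at 0.96, 0.95 and 0.94. These are the highest of many values over only 8 libraries and describe likeness alone.

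A wider list of 72 genes of iron and haem handling was counted next, and 58 of them were tested. By edgeR 0 of the 58 passed the adjusted threshold, which 0.0834% of all genes tested passed, and DESeq2 and limma-voom also called 0. At an unadjusted p under 0.05 there was 1 higher (1.84% of all genes tested were) and 0 lower (2.81%). The log2 fold changes ran from -0.45 to 0.43 with a median of 0.02, and 31 were above 0 and 27 below. Of all 11988 genes tested, 6227 were above 0 and 5761 below, and the directions within the groups that follow were not tested. In 2 genes, Uros and Ncoa4, the zinc libraries lay above all water libraries, as in 1.24% of all genes tested, and in 0 genes they lay below.

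Among 8 tested genes of iron entry and ferric reduction, 2 had a log2 fold change above 0 and 6 below. Transferrin itself, Trf, was low at 2.10 ± 0.567 CPM in water mice and 1.72 ± 0.833 CPM in zinc mice (SD, n = 4 each, edgeR adjusted p = 0.998). Cybrd1, the ferric reductase of the duodenal brush border, had the highest CPM of this group, at 68.0 ± 10.5 CPM in water mice and 64.4 ± 12.5 CPM in zinc mice (SD, n = 4 each, edgeR adjusted p = 0.998). Steap2, an endosomal metalloreductase, was at 8.28 ± 2.43 and 7.34 ± 1.63 CPM (SD, n = 4 each).

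All 5 tested genes of iron chaperones and ferritin turnover were above 0, at a median of 0.12, and 0 passed the threshold. Ncoa4, the receptor that carries ferritin to lysosomes for breakdown, was at 3.13, 3.27, 3.05 and 2.06 CPM in water replicates 1 to 4 and at 3.92, 3.52, 4.50 and 3.45 CPM in zinc replicates 1 to 4. Each zinc library was above each water library by a small margin. At a log2 fold change of 0.42 (SE 0.25), its edgeR p was 0.107 and its adjusted p 0.998. Pcbp1 and Pcbp2, which deliver iron to ferritin, were at 206 ± 26.8 and 274 ± 14.5 CPM in water mice and at 231 ± 7.76 and 277 ± 9.04 CPM in zinc mice (SD, n = 4 each).

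Only 2 export oxidases and carriers were tested. Heph, the copper oxidase that works beside ferroportin in the gut, was at 21.4 ± 4.49 CPM in water mice and 19.0 ± 4.64 CPM in zinc mice (SD, n = 4 each). Lrp1, a receptor that takes up haem bound to hemopexin, was at 12.6 ± 5.10 and 14.5 ± 2.32 CPM (SD, n = 4 each). Among 8 tested regulators, 2 were above 0 and 6 below, with Hfe, which takes part in iron sensing, at 1.95 ± 0.645 and 1.43 ± 0.552 CPM, Hif1a, a hypoxia factor subunit, at 38.4 ± 4.35 and 35.1 ± 4.48 CPM, and Zfp36l1, an mRNA decay factor, at 43.1 ± 3.98 and 42.5 ± 4.62 CPM (SD, n = 4 each).

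Of 16 tested genes of mitochondrial iron and iron-sulphur clusters, 6 were above 0 and 10 below, within -0.15 to 0.18. Slc25a28 (mitoferrin 2), an iron carrier of the mitochondrial inner membrane, was at 16.5 ± 2.76 CPM in water mice and 14.8 ± 1.78 CPM in zinc mice. Isca2, a cluster assembly gene, was at 11.1 ± 3.03 and 12.5 ± 2.13 CPM (SD, n = 4 each for both genes).

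Of 10 tested genes of haem synthesis, 8 were above 0 (6227 of all 11988 genes tested were), at a median of 0.13, and 0 passed the threshold. Uros, which closes the tetrapyrrole ring, was at 9.44, 8.38, 6.90 and 7.87 CPM in water replicates 1 to 4 and at 11.6, 11.9, 10.03 and 10.2 CPM in zinc replicates 1 to 4. Each zinc library exceeded each water library. The edgeR p was 0.015 and the adjusted p 0.998, at a log2 fold change of 0.43 (SE 0.16). Cpox and Tmem14c, of later steps, were at 41.0 ± 7.47 and 30.3 ± 4.24 CPM in water mice and at 45.1 ± 3.22 and 33.2 ± 3.01 CPM in zinc mice (SD, n = 4 each). Of 9 tested genes of haem import, export and breakdown, 7 were above 0, at a median of 0.19. The highest in this group was Slc48a1, a haem transporter of lysosomes, at 28.7 ± 1.97 CPM in water mice and 33.8 ± 3.78 CPM in zinc mice (log2 fold change 0.23, edgeR adjusted p = 0.998). The haem exporter gene Flvcr1 was at 4.18 ± 1.40 and 5.60 ± 0.949 CPM (log2 fold change 0.42, edgeR adjusted p = 0.998).

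**Figure D4:**
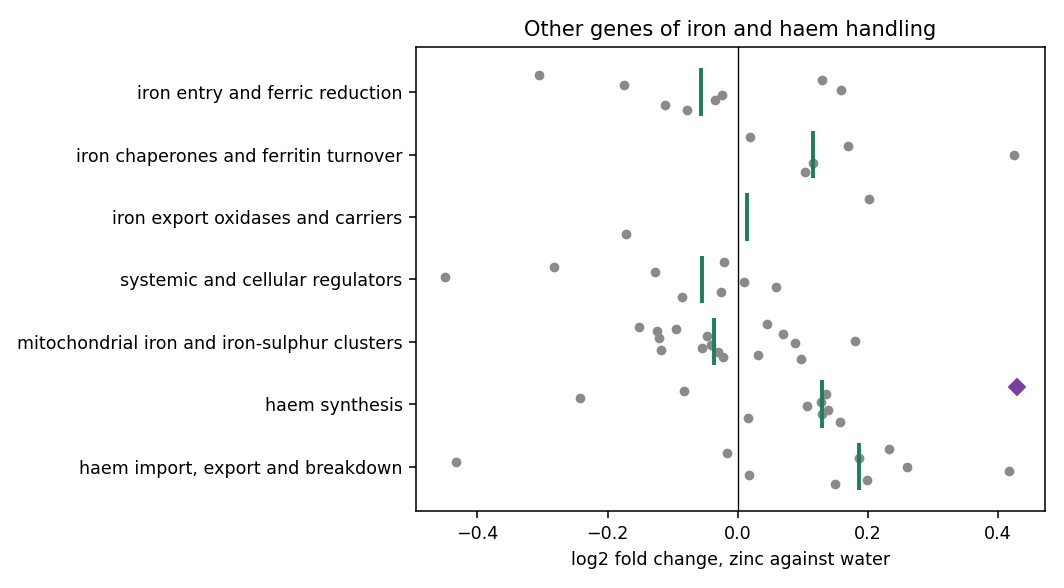
Log2 fold change of zinc against water for the 58 tested genes of the wider iron and haem list, in 7 groups by role, with a green bar for the median of each group, a purple diamond for the 1 gene with an unadjusted edgeR p under 0.05 (Uros) and grey points for the rest (the height within a group only separates points). All points lie between -0.45 and 0.43, and the medians lie between -0.06 and 0.19.

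The other 14 genes of the wider list were too low to be tested, and 5 of them were at 0 in every library. The 9 with a count held 2 whose zinc libraries all lay below the water libraries, named here after their values had been seen. Steap4, a metalloreductase, had 9, 4, 17 and 31 counts in water replicates 1 to 4 and 0, 2, 3 and 0 counts in zinc replicates 1 to 4. Lcn2, which encodes the siderophore-binding lipocalin 2, had 6, 16, 13 and 27 counts in water mice and 0, 0, 4 and 6 counts in zinc mice. The sums over 4 libraries were 61 against 5 for Steap4 and 62 against 10 for Lcn2. In the edgeR fit without a low-count filter the p was 0.000564 for Steap4 (adjusted p = 0.124) and 0.00368 for Lcn2 (adjusted p = 0.405), and neither passed the threshold. In that fit, 3.5% of the 20836 genes had an unadjusted p under 0.05 and were lower, and in 1.25% the zinc libraries lay below all water libraries.

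The groups of all genes with an IRE match give the background for the members that hold one. Of 39 tested genes with a 5′ UTR match, 25 were above 0 and 14 below, with a median log2 fold change of 0.07. Of 185 tested genes with a 3′ UTR match, 87 were above 0 and 98 below, with a median of -0.02. By edgeR 0 genes of either group passed the threshold, and 2 of 39 and 10 of 185 had an unadjusted p under 0.05, against 4.65% of all genes tested. DESeq2 called 0 of 39 with a 5′ UTR match and 2 of 201 with a 3′ UTR match, against 0.225% of the 15973 genes to which it gave an adjusted p, Casp4 (log2 fold change -1.28, DESeq2 adjusted p = 0.000998) and Trim35 (1.30, DESeq2 adjusted p = 0.0379), of which limma-voom called Casp4 (1 of 185, against 0.1% of all genes tested), and both are named after their values were seen.

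The promoter windows of the members were searched for TGCACNC and TGCGCNC on both strands, the core letters of the metal response element through which zinc switches on metallothionein genes. The RefSeq windows (GRCm38.p6, 300 bases around a start, most of them before it) held 4 matches for Mt2, 3 for Mt1 and 2 for Slc30a1. Among the members, 1 of 2 listed starts of Tfrc held 2 matches, Aco1 held 1, and Fth1, Ftl1, Hamp and Ireb2 held 0. Of all 32851 windows, 25.7% held at least 1 match and 1.97% held 3 or more. No window was at hand for Slc11a2 and Slc40a1.

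Markers of other cell types were measured beside these values. The 10 enterocyte markers summed to 325 to 431 CPM in water mice and 362 to 411 CPM in zinc mice (exact permutation p = 0.771), while Lct had at most 3 counts and Alpi at most 15 counts in any library. Most of this sum came from Anpep, at 289 CPM in water and 272 CPM in zinc mice, followed by Slc5a1, at 46.7 and 52.9 CPM, and Fabp2, at 42.2 and 51.2 CPM. Of the 6 tested enterocyte markers, 5 had a log2 fold change above 0, and 0 passed the threshold by edgeR. One enterocyte marker, Sis, was at 2.03 ± 0.572 CPM in water mice and 11.5 ± 8.69 CPM in zinc mice (SD, n = 4 each). Its edgeR adjusted p was 0.852. The part of enterocytes in the values of Slc11a2 and Slc40a1 was not tested. Macrophage markers summed to 0.0764 to 3.50 CPM in water mice and 0.178 to 0.737 CPM in zinc mice with Cd163 at 0 in all libraries, and erythroid markers to 0.129 to 0.465 and 0.198 to 2.41 CPM. Lymphocyte markers summed to 0 to 1.22 and 0 to 0.158 CPM with Cd3e and Cd3g at 0, and stromal markers to at most 0.625 CPM with Col1a1, Col1a2 and Dcn at 0.

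The summed CPM of the crypt stem cell markers had a lower mean with zinc, and 1 of the 4 single markers had a log2 fold change above 0. Their 4 genes summed to 4356 to 5728 CPM in water mice and 3047 to 4455 CPM in zinc mice (exact permutation p = 0.0571). Olfm4 made up most of this sum, at 4734 ± 575 CPM in water mice and 3404 ± 572 CPM in zinc mice (SD, n = 4 each). Its edgeR p was 0.0243 and its adjusted p 0.998, at a log2 fold change of -0.48 (SE 0.19). Lgr5 was level at 76.7 ± 18.3 and 75.5 ± 11.9 CPM (SD, n = 4 each). The part of these cells in the values of Tfrc, which dividing cells express, was not tested. Goblet cell markers summed to 3670 to 5158 and 4267 to 7503 CPM, enteroendocrine markers to 4.44 to 84.4 and 8.91 to 53.4 CPM, and tuft cell markers to 9.95 to 90.9 and 13.0 to 59.4 CPM, with water and zinc respectively.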

How the data were processed

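The deposited file is 1 table in which the authors give raw, unnormalized counts of reads by Ensembl gene for PCs of 4 water and 4 zinc mice (library totals 20760764 to 24117111). The submitters' processing notes name FastQC 0.12.0, STAR 2.7.0a, DESeq2 and mm39. The counting program, its strand setting and its handling of reads with several places were not given in the sources used here. Libraries were stranded and of poly(A) RNA, without molecular identifiers. Gene IDs were matched to GENCODE M39 (54749 of 55414).

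Zinc was compared with water over 11988 genes by edgeR 4.0.16 in R 4.3.3 (minimum count 10, TMM, robust quasi-likelihood F test, Benjamini-Hochberg adjustment, threshold 0.05, treatment only). Alternatives were DESeq2 1.42.0, limma-voom (limma 3.58.1), other scalings and filters, Defa genes left out, the replicate number as a block and each library left out. Ratios (0.5 added to each count), shares and correlations were tested by exact two-sided permutation in Python 3.11.15 with scipy 1.17.1. Log2 CPM for correlations had a prior count of 2. Libraries of a group differed by 31.4 to 131 times sampling noise (chi-square per degree of freedom), so each was 1 replicate.

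The members and gene lists were chosen with earlier results of these data known. The text names the 8 members, 3 zinc genes, any gene of the wider list past the threshold, the 2 of smallest p and the most abundant of each of its 7 groups, and the 3 genes most alike to Tfrc, Slc40a1 and Fth1. Uros and Ncoa4 fall under this rule, 1 gene that it names is not reported here, and marker genes are named from their lists.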

Additional observations from a re-analysis of the deposited data

Results flagged for a closer look

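A Dixon test at the 95% level asked whether 1 library of a group stood apart from the other 3, and chance singles out about 1 in 20 groups. It singled out 7 of 72 groups. Hamp stood apart in water replicate 4 at 0.306 CPM and in zinc replicate 2 at 0.0483 CPM, where the other libraries of the group had 0. With the others at 0 any read is singled out, and the zinc value is 1 count, so these Hamp results say nothing further. In zinc replicate 2, Mt1 was at 425 CPM (189 to 223 in the other zinc libraries) and Mt2 at 455 CPM (205 to 240). Steap2 was at 4.93 CPM in zinc replicate 1 (7.86 to 8.46 in the others), and Isca2 was at 9.35 CPM in zinc replicate 4 (13.1 to 13.8 in the others). The log2 ratio of Slc40a1 to Tfrc was -6.54 in zinc replicate 1, against -5.59 to -5.43 in the other zinc libraries, and it rests on 13 counts of Slc40a1.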

How the results depend on the processing

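Of 244 alternative values, 211 were alike to the main value. For an effect this means the same direction and side of the threshold, and for a count of genes a similar size. They include the counts of the wider list, which were 0 in each setting. Of the rest, 12 changed sign, 1 no longer passed the threshold, and 20 counts or levels moved further. Tfrc stayed below 0 in 16 of 16 alternatives (-0.51 to -0.31, edgeR, DESeq2 or limma-voom adjusted p 0.216 to 1.0), Slc11a2 in 16 of 16 (-0.55 to -0.33, adjusted p 0.442 to 1.0) and Slc40a1 in 15 of 15 (-0.75 to -0.36), which had no value at a mean count of at least 50. No member and no gene of the wider list was called under any alternative. Over all genes the 3 higher and 7 lower became 8 and 28 by DESeq2, 11 and 55 without a filter, and 0 to 5 and 1 to 12 with 1 library left out, fewest without water replicate 2 (0 and 1). Values near 0 changed sign when 1 library was left out: Fth1 ran from -0.11 to 0.053, Ftl1 from -0.14 to 0.038, Ireb2 from -0.098 to 0.0079, the log2 ratio of Slc40a1 to Tfrc from -0.42 to 0.19 and the ferritin share from -0.00591 to 0.00387 percentage points; the cause was not tested. By canonical transcript length, chosen after seeing the data, levels in water mice were 897 (Fth1), 62.5 (Ftl1), 16.3 (Tfrc), 14.8 (Aco1), 7.47 (Slc11a2), 6.96 (Ireb2) and 0.458 (Slc40a1) CPM per kb. The correlation of Fth1 with Ftl1 was 0.87 (adjusted p = 0.1) over 6 libraries.

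Deviations of same-numbered libraries had correlations of 0.23, 5.5e-05, 0.13 and 0.26 for numbers 1 to 4, and differently numbered ones at most 0.04. The TMM factors were also close within a number, at 0.764 and 0.775, 1.02 and 0.998, 1.07 and 1.05, and 1.21 and 1.23 (water and zinc, numbers 1 to 4). As 1 of the 4 correlations was under 0.1, the main fit did not pair the mice by number. Number 2 libraries did not correlate best with each other. The labels do not say what the numbers mark, and whether same-numbered mice share a source of variation was not tested. Within numbers, Tfrc, Slc11a2 and the ratio of Tfrc to Fth1 were lower with zinc in 4 of 4, Slc40a1 and Ftl1 in 3, Ireb2 in 2, Fth1 in 1 and Aco1 in 0. The share of all genes tested that were lower in 4 of 4 was not counted, so these counts are a description only. With 4 numbers the smallest p that a sign-flip test can give is 0.125. With the replicate number as a block, 6 genes were higher and 26 lower, and Tfrc was at -0.41 (edgeR adjusted p = 0.216). The SE of the log2 fold change was then smaller for each tested member except Slc40a1. It was 0.087 for Fth1 (0.147 in the main fit), 0.106 for Tfrc (0.133) and 0.421 for Slc40a1 (0.398). Any variation shared by number is thus part of the spread between mice in the main fit.

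Depth limits Slc40a1 and Hamp most, and Ftl1 is limited by its copies. With 4 mice a group, a missed threshold does not show that a gene did not change.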
